A study of Mus musculus with 2 samples.

Results

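The genes described here bring cholesterol into cells of the adrenal gland, move it out of the lysosome, and store or release it as cholesterol ester: Scarb1, Vldlr, Lrp1, Npc1, Npc2, Lipa, Soat1, Lipe and Apoe. They were chosen by name, each symbol matched 1 gene ID of GENCODE M21, and they are 9 of 55536 annotated genes. The data are total RNA-seq of the adrenal glands of 2 male adults, 8 to 10 months old, of the hybrid B6CASTF1/J (a first-generation cross of C57BL/6J with CAST/EiJ). Replicate 1 is animal 2 and replicate 2 is animal 4 in the labels, and no treatment, second genotype or other group is named. With 1 group, the comparisons are of genes within each gland, of transcripts within each gene, and of replicate 2 with replicate 1. The last has 1 animal on each side, so no p-value was computed.

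Steroid hormones are made from cholesterol, and the adrenal cortex obtains much of it from circulating lipoproteins. Scavenger receptor class B type 1 takes cholesterol ester from high-density lipoprotein without swallowing the particle, whereas endocytic receptors carry whole particles to the lysosome. There the ester is cleaved and the free sterol is handed out through the NPC proteins, and surplus sterol is esterified again and held in lipid droplets until a hydrolase releases it.

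The sequences that separate the main transcripts of 3 of these genes are given first, because the transcript results below turn on them. They were read from the GENCODE M21 transcripts (mm10), 5′ to 3′ on the strand of the gene. Scarb1-201 contains a 129-base exon, exon 12 of 13, at chr5:125281105-125281233 (minus strand), that Scarb1-202 skips. The skipped exon ends in the stop codon of Scarb1-201, so the 2 messages encode different carboxyl ends, known as SR-BI and SR-BII. Capitals mark the exon, and in the junction the bases after the skip.
Scarb1-201 exon 12: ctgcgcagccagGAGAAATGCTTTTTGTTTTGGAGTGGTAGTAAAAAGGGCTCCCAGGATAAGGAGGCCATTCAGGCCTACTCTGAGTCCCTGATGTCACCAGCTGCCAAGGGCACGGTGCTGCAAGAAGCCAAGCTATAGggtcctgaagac
Scarb1-202 junction: caactgcgcagccagGGTCCTGAAGACACT
Vldlr-207 contains an 84-base coding exon, exon 16 of 19, at chr19:27246593-27246676 (plus strand), that Vldlr-208 skips. Capitals mark the exon in the same way.
Vldlr-207 exon 16: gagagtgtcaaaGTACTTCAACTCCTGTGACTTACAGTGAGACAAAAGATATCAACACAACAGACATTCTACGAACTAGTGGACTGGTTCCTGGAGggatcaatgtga
Vldlr-208 junction: gacgagagtgtcaaaGGATCAATGTGACCA

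Lipe is transcribed from several starts on the minus strand of chromosome 7. Lipe-201 begins 6273 bases upstream of Lipe-202, and its own first exon adds 109 coding bases at chr7:25395501-25395609. Together with 20 bases of the shared second exon they make 43 codons ahead of the start codon of Lipe-202. Capitals mark the coding bases found only in that first exon, and the last 3 letters are the start codon of Lipe-202.
Lipe-201 first coding exon: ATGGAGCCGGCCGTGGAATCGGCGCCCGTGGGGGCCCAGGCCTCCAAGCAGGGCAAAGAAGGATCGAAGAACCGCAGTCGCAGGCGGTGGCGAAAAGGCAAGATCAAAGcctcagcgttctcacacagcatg
The 250 bases before the downstream RefSeq start of Lipe (GRCm38.p6, chr7:25390113-25390362, minus strand) stand ahead of Lipe-202, the leading transcript of the gene.
Lipe downstream promoter: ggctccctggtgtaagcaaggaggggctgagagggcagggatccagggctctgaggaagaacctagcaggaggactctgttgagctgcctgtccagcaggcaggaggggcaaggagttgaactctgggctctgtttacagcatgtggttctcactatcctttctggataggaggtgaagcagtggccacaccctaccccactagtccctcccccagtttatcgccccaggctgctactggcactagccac

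All 9 genes were detected in both glands at 1 TPM (a level per transcript length, scaled to the same sum in each library) or more. Depth was 29994901 expected counts on annotated genes in replicate 1 and 33987434 in replicate 2, and the lowest count of a member in either library was 1095 (Vldlr). No member shared reads with another gene in the estimate, since the posterior SD of the gene count was 0 for 9 of 9 in both libraries. All 9 markers of steroid-producing cells were detected, with summed levels of 22702 and 18689 TPM in replicates 1 and 2, and all 8 chromaffin cell markers, at 3158 and 2261 TPM. None of the 5 kidney markers reached 1 TPM in both (Umod and Slc12a1 were listed at 0). Adipocyte markers summed to 263 TPM in replicate 1 and 2370 TPM in replicate 2, with 11 of 11 detected, so the level of fat cell RNA differed between the libraries. Where a level is given as a mean, the SD is that of the n = 2 animals, in TPM. In whole tissue, fewer cells of a type and less RNA per cell cannot be told apart.

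Scarb1, the receptor for high-density lipoprotein, had the highest level of the 9 genes and differed strongly between the animals. It stood at 1453 TPM in replicate 1 and 609 TPM in replicate 2 (1031 ± 596), which made it the coding gene of rank 10 and rank 33 among 22015 nuclear coding genes. It held 55.7% of the summed level of the 9 genes in replicate 1 and 33.2% in replicate 2. The gene spans chr5:125277087-125341094 on the minus strand. A transcribed entry of unknown coding status, Gm42633, lies inside it on the same strand at 1.14 and 0.49 TPM.

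The endocytic receptors were far lower than Scarb1. Lrp1, a very large receptor for apolipoprotein E, proteases and many other ligands, stood at 74.2 TPM in replicate 1 and 101 TPM in replicate 2 (87.4 ± 18.7). Its full-length transcript Lrp1-201, with 89 exons and 13635 coding bases, accounted for 41.3 and 53.3 TPM of these. Vldlr, the receptor for very-low-density lipoprotein, was the lowest member at 7.16 and 10.1 TPM (8.65 ± 2.11). Of the summed level of the 9 genes, Lrp1 took 2.84% in replicate 1 and 5.48% in replicate 2, and Vldlr 0.275% and 0.552%. Scarb1 was thus above both endocytic receptors in each gland.

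The lysosomal genes lay below Scarb1, Soat1, Apoe and Lrp1 and above Vldlr in each gland. Npc1, the membrane protein that exports sterol from the lysosome, stood at 59.6 TPM in replicate 1 and 46.4 TPM in replicate 2 (53.0 ± 9.36). Npc2, the soluble protein that passes cholesterol to it, stood at 26.7 and 39.2 TPM (33.0 ± 8.85). Lipa, the lysosomal acid lipase that cleaves cholesterol ester, stood at 34.1 and 42.5 TPM (38.3 ± 5.96). The ratio of Npc1 to Npc2 was 2.23 in replicate 1 and 1.18 in replicate 2, so the 2 partners lay closer in level in replicate 2. The level of Npc2 is divided by an annotated length of 3299 bases for Npc2-201, of which 447 are coding. Npc1 overlaps the coding gene Rmc1 on the opposite strand, which had 1815 and 1570 counts, and whether counting used the strand is not given in the sources used here.

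In RNA level the ester synthesis gene Soat1 stood well above the hydrolase genes Lipe and Lipa. Soat1, the enzyme that esterifies cholesterol in the endoplasmic reticulum, stood at 618 TPM in replicate 1 and 468 TPM in replicate 2 (543 ± 106), rank 36 and rank 64 among coding genes. Lipe, the hormone-sensitive lipase that releases cholesterol from stored ester in steroid-producing cells and fatty acids in fat cells, stood at 36.3 and 108 TPM (72.0 ± 50.6). Soat1 exceeded Lipe 17.0 times in replicate 1 and 4.34 times in replicate 2. It exceeded Lipa 18.1 and 11.0 times. The excess over both hydrolases was present in each gland, and its size differed between them. These ratios are of whole genes. Transcripts not annotated as coding took 30.8% and 35.8% of the Soat1 level by RSEM, against 4.31% and 3.47% for Lipe.

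Apoe, a secreted apolipoprotein that is a ligand of the endocytic receptors, was the third most abundant member. It stood at 299 TPM in replicate 1 and 414 TPM in replicate 2 (357 ± 81.0), rank 119 and rank 82 among coding genes. Apoe lies at chr7:19696109-19699188 and Lipe on the same chromosome at chr7:25379527-25398710, both on the minus strand. Other apolipoprotein genes of the list were lower: Apoc4 stood at 19.8 ± 2.43 TPM, Apoc1 at 7.29 ± 5.26 and Apoa1 at 1.13 ± 0.255. Among the apolipoproteins listed, Clu (clusterin) came nearest, at 138 ± 5.73 TPM.

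By mean TPM the order was Scarb1, Soat1, Apoe, Lrp1, Lipe, Npc1, Lipa, Npc2 and Vldlr. Neighbours whose values overlapped across the 2 animals were Scarb1 and Soat1, Lrp1 and Lipe, Lipe and Npc1, and Lipa and Npc2. Apoe exceeded Lrp1 by 4.04 and 4.11 times, and Npc2 exceeded Vldlr by 3.73 and 3.87 times, in replicates 1 and 2. These gaps were also present in the kallisto-format levels, at 5.32 and 5.79 times and at 4.06 and 4.05 times. Soat1 was above Apoe by 2.06 and 1.13 times in the RSEM-format levels, but in the kallisto-format levels the ratio was 1.95 and 0.999. Npc1 and Lipa changed places in replicate 2 under the kallisto format, with a ratio of 0.927 against 1.09. Only the 2 wide gaps therefore divide the order in the same way in both glands and by both quantifiers without overlap, together with the place of Scarb1 as the highest in each gland.

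**Figure D1:**
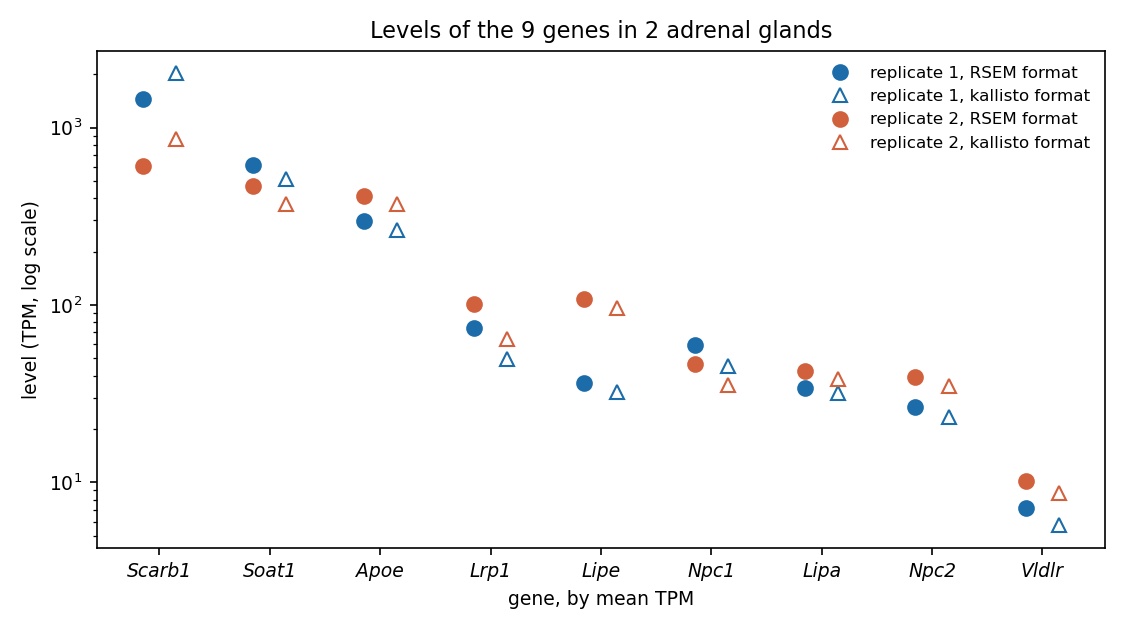
Level of each gene in TPM (log scale), with filled circles for RSEM-format and open triangles for kallisto-format values, replicate 1 in blue and replicate 2 in orange. Scarb1 lies highest in each library, Vldlr lowest, and Scarb1 and Lipe have the widest gaps between the animals.

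Between the animals, 1 of the 9 genes was at least 2-fold higher in replicate 2 and 1 was at least 2-fold lower, after scaling of counts with TMM factors. The same rule called 2.40% higher and 1.10% lower (3.51% in all) of the 12853 nuclear genes whose mean count was 100 or more. With 9 genes, 1 call in a direction is a description of that gene and not of the group. The rule also asked that the exact binomial 95% interval of the fold, which covers counting error only, exclude equality. Scarb1 had 96997 counts in replicate 1 and 43347 in replicate 2 and was 2.60-fold lower (2.57 to 2.63), with a log2 ratio of -1.38. Only 0.335% of the 12853 genes had a lower log2 ratio. Lipe had 2840 and 8367 counts and was 2.53-fold higher (2.43 to 2.64), with a log2 ratio of 1.33, above 98.6% of the genes. Log2 ratios are of CPM (counts scaled to library size) with 1 added. Lipe and Scarb1 were also the only members called at 1.5-fold, where the background was 6.39% higher and 3.72% lower (10.1% in all), and with kallisto-format counts, where it was 2.28% and 1.12% (3.39% in all). With genes down to a mean of 10 counts the background was 4.81% higher and 3.80% lower (8.60% in all).

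The other members differed by less than 1.5-fold, and in both directions. Soat1 was 1.38-fold lower in replicate 2 (1.36 to 1.40) and Npc1 1.40-fold lower (1.36 to 1.45). Vldlr was 1.37-fold higher (1.27 to 1.48), Npc2 1.34-fold (1.27 to 1.41) and Apoe 1.28-fold (1.24 to 1.31). Lrp1 was 1.20-fold higher (1.18 to 1.22) and Lipa 1.15-fold (1.09 to 1.21). Thus Scarb1, Npc1 and Soat1 were lower and the other 6 higher in replicate 2. Over all genes compared, 52.2% had a log2 ratio above 0. The interval excluded equality for 9 of 9 members and for 56.8% of all genes compared, so the interval on its own did not set the members apart. The members' median log2 ratio was 0.26, against 0.01 over all genes compared.

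**Figure D2:**
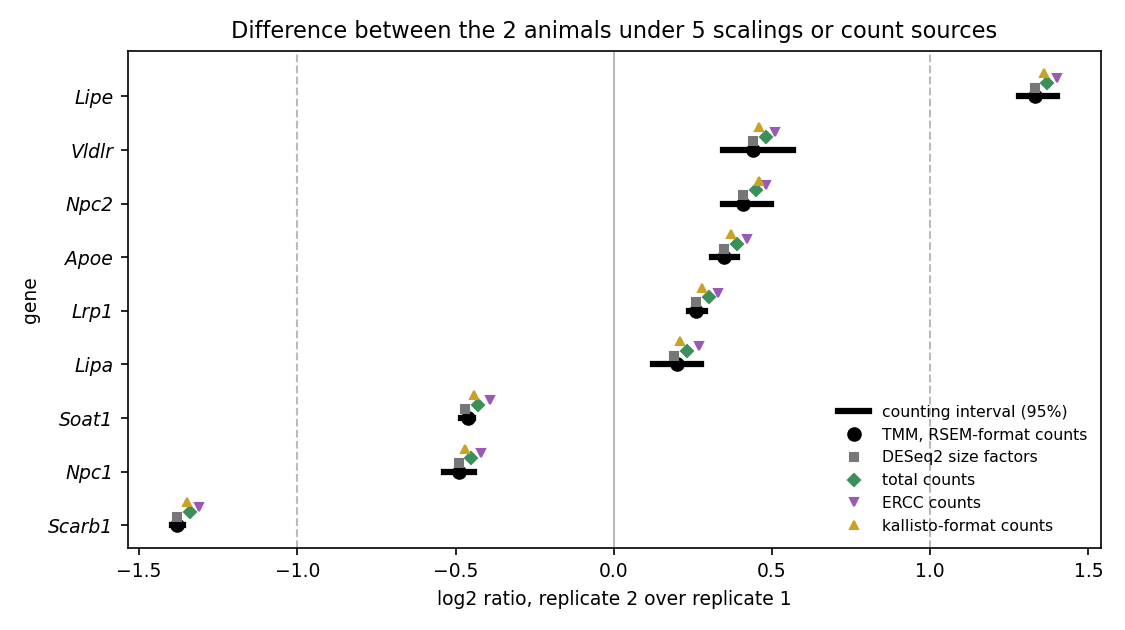
Log2 ratio of replicate 2 over replicate 1 for each gene, as black circles with the 95% counting interval as a black line (of the fold without the added 1), and as coloured marks for other scalings and for kallisto-format counts. Dashed lines mark a 2-fold difference; Scarb1 lies below the lower one and Lipe above the upper one under every scaling drawn.

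The Lipe difference lay in the transcripts of the downstream starts. Lipe-201, from the upstream start, stood at 8.99 TPM in replicate 1 and 7.74 TPM in replicate 2. Lipe-202, from the downstream start whose promoter is printed above, stood at 18.1 and 70.7 TPM. Lipe-208, which begins 882 bases further downstream and has the same coding length of 2277 bases, stood at 7.30 and 21.8 TPM. Summed over Lipe-202, Lipe-208 and the short Lipe-205, which begins 371 bases upstream of Lipe-202, the downstream starts gave 1933 and 7490 counts, 3.33-fold higher in replicate 2 (3.17 to 3.50). The 885 and 819 counts of Lipe-201 were 1.26-fold lower, with a fold of 0.796 (0.723 to 0.876). That interval leaves out the uncertainty of read assignment, with a posterior SD of 51.3 and 57.0 for the Lipe-201 counts. The estimates for the upstream and downstream starts thus lay on opposite sides of equality, with Lipe-201 the closer to it.

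The kallisto-format levels gave the same split for Lipe. Lipe-201 stood there at 8.09 and 6.99 TPM, and the downstream starts at 22.1 and 85.2 TPM, in replicates 1 and 2. The share of Lipe-201 in the gene was 24.8% and 7.19% by RSEM and 25.2% and 7.25% by kallisto. Lipe-204, with the farthest upstream start and the longest reading frame, had 0 counts in replicate 1 and 12 in replicate 2. Some other hydrolases of the lipid droplet list were higher in replicate 2 as well: Pnpla2, the adipose triglyceride lipase, 2.46-fold (2.36 to 2.57) and Mgll, the monoglyceride lipase, 2.06-fold (1.97 to 2.16). Nceh1, a cholesterol ester hydrolase of the same list, was 1.16-fold lower (1.12 to 1.20). All 11 adipocyte markers were at least 2-fold higher in replicate 2, beside 2.40% of all genes compared. They had a median log2 ratio of 3.02, with Adipoq at 18.9 and 175 TPM. Of 7 brown adipocyte markers 5 had enough counts and were called higher, beside the same 2.40%. Their median was 2.57, and the summed level over all 7 was 27.3 and 284 TPM. Ucp1, the uncoupling protein of brown fat, stood at 0.14 and 80.6 TPM. The part of fat cells in the Lipe difference was not tested.

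**Figure D3:**
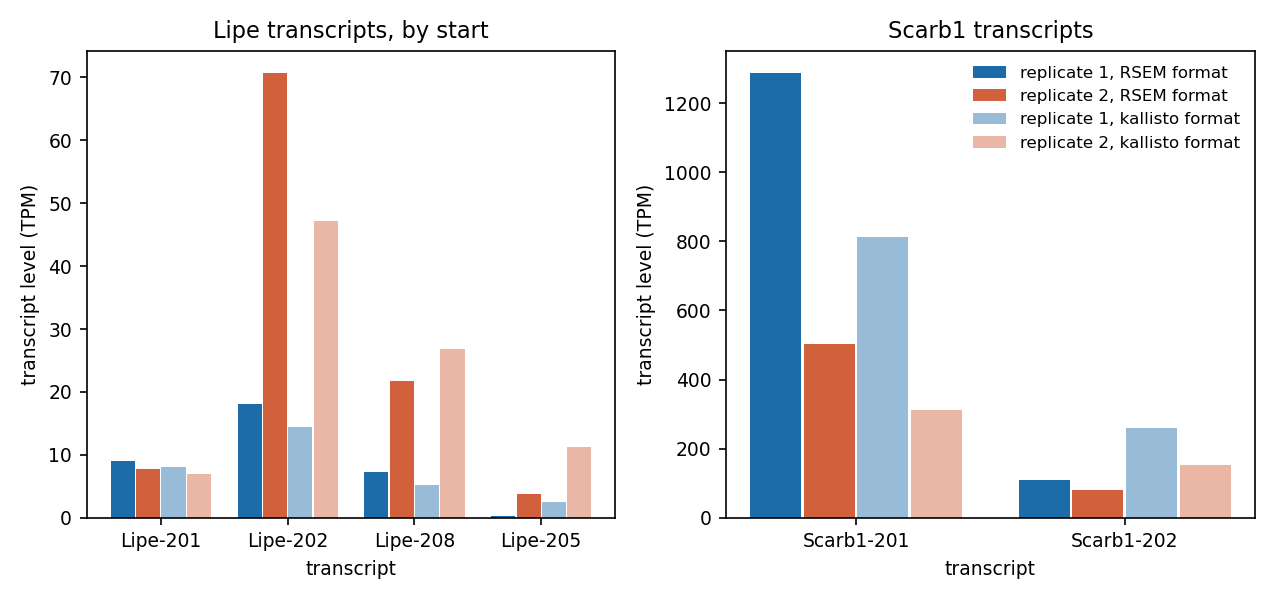
Level in TPM of the Lipe transcripts, from the upstream start (Lipe-201) and the downstream starts (the other bars), and of the Scarb1 transcripts, with replicate 1 in blue, replicate 2 in orange and kallisto-format values in lighter shades. Lipe-201 is at a similar height in all 4 bars, whereas Lipe-202 and Lipe-208 are higher in replicate 2; both Scarb1 transcripts are lower in replicate 2.

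The Scarb1 difference was present in both main coding transcripts and larger in Scarb1-201. Scarb1-201, with the 129-base exon, stood at 1287 TPM in replicate 1 and 504 TPM in replicate 2, 2.77-fold lower by counts, and Scarb1-202 at 109 and 81.5 TPM, 1.45-fold lower. The other coding transcripts, Scarb1-205 and Scarb1-208, had fewer than 20 counts in each library. Within the pair Scarb1-202 took 7.81% in replicate 1 and 13.9% in replicate 2. By kallisto it took 24.3% and 32.8%, so the shift had the same direction while the share itself depended on the quantifier. Splitting the reads of a gene among its transcripts is an estimate, and the posterior SD of the replicate 2 counts was 338 for Scarb1-201 (36712 counts) and 329 for Scarb1-202 (5559 counts).

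Lrp8 and Gramd1b, which have related roles, were called lower in replicate 2 as well, beside 1.10% of all genes compared. Most genes of their lists with enough counts had a log2 ratio above 0. These were 10 of 15 in the receptor list and 9 of 14 in the lysosomal sterol list. Cd36, Mylip and Stard5 of these lists were called higher. Lrp8, an endocytic receptor for apolipoprotein E, was 2.59-fold lower (2.28 to 2.95), at 6.81 and 3.34 TPM. Gramd1b, an Aster protein that carries cholesterol from the plasma membrane to the endoplasmic reticulum, was 2.37-fold lower (2.33 to 2.41), at 296 and 127 TPM. The ratio of Scarb1 to Star, which delivers cholesterol to the mitochondrion, was 0.212 in replicate 1 and 0.124 in replicate 2, and that of Soat1 to Star 0.0901 and 0.0955. The ratio to Star thus differed between the glands for Scarb1 and lay close for Soat1.

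Markers of steroid-producing cells and of chromaffin cells moved with Scarb1, Soat1 and Npc1. All 9 markers of steroid-producing cells had a log2 ratio below 0, whereas 52.2% of all genes compared lay above it. The markers had a median of -0.43, with single genes from Fdx1 (-1.26) to Hsd3b1 (-0.06). Of them 1, Fdx1, was at least 2-fold lower, beside 1.10% of all genes compared. The log2 ratios of Soat1 (-0.46) and Npc1 (-0.49) lay near that median, and that of Scarb1 (-1.38) below the lowest of the 9 markers. Of the 8 chromaffin cell markers 7 had a log2 ratio below 0, with a median of -0.35. Beside the same 1.10% of all genes compared, 2 were called lower. These were Pnmt, the enzyme that makes adrenaline, at 363 and 78.0 TPM (5.04-fold, 4.82 to 5.27), and Th, the first enzyme of catecholamine synthesis, at 514 and 256 TPM (2.18-fold, 2.13 to 2.22). The part of either cell type in the 3 differences was not tested.

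Macrophage markers were higher in replicate 2, as were 6 of the 9 members: Apoe, Lipa, Npc2, Lrp1, Vldlr and Lipe. Of 11 markers 10 had a log2 ratio above 0, against 52.2% of all genes compared, with a median of 0.55. Only 1 of them, Gpnmb, was called higher, beside 2.40% of all genes compared. Their summed level was 228 TPM in replicate 1 and 368 TPM in replicate 2. The most abundant, Lyz2, stood at 98.0 and 175 TPM, and C1qb at 31.7 and 37.6 TPM. The log2 ratios of these members were lower than the marker median of 0.55, except for Lipe at 1.33. The others were 0.44 for Vldlr, 0.41 for Npc2, 0.35 for Apoe, 0.26 for Lrp1 and 0.20 for Lipa. Npc1, a lysosomal gene like Npc2 and Lipa, was lower in replicate 2, at -0.49. Capsule and fibroblast markers, 6 of 6 above 0, had a median of 0.64, and adipocyte markers, 11 of 11 above 0, a median of 3.02. The part of these cells in the differences was not tested.

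Many of the other genes of the lipid droplet were higher in replicate 2. Of 18 cholesterol ester and lipid droplet genes, 15 passed the count minimum; of these, 9 were called higher in replicate 2 and 0 lower, beside 2.40% and 1.10% of all genes compared, with a median log2 ratio of 1.20. The adipocyte markers, 11 of 11 called higher with a median of 3.02, moved with them, and their part was not tested. The 9 were Plin1, Plin4, Plin5, Cidea, Cidec, Dgat2, Ces1d, Pnpla2 and Mgll, of which Plin1, Cidea and Cidec are also in the fat cell marker lists. Plin1 and Plin4, coat proteins of the droplet, stood at 63.0 and 209.5 TPM and at 8.62 and 70.9 TPM, and Dgat2, which makes triglyceride, at 16.1 and 137 TPM. Plin2, the droplet coat protein found in most cells, stood at 115 and 131 TPM, a fold of 1.08 (1.04 to 1.12). Nceh1, another cholesterol ester hydrolase, stood at 70.7 and 60.5 TPM, and Soat2, the second esterifying enzyme, at 0.14 and 0.16 TPM. Plin2, Nceh1 and Soat2 were not among the genes called.

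Of 18 receptors, adaptors and their regulators, 15 had enough counts and a median log2 ratio of 0.11, and 2 were called higher in replicate 2, beside 2.40% of all genes compared. The higher ones were Cd36, a fatty acid and lipoprotein scavenger receptor at 40.9 and 216 TPM (4.65-fold, 4.45 to 4.85), and Mylip, a ubiquitin ligase that marks lipoprotein receptors for breakdown, at 2.24 and 4.93 TPM (2.10-fold, 1.76 to 2.51). Lrp8 was called lower, as given above, beside 1.10% of all genes compared. Dab2, an endocytic adaptor and the most abundant of this list, stood at 148 and 161 TPM.

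Of 16 genes of lysosomal sterol handling and transfer, 14 had enough counts, and the median log2 ratio was 0.05. Beside the same 2.40% and 1.10% of all genes, only Stard5, a sterol transfer protein, was at least 2-fold higher (2.04-fold, 1.78 to 2.34) and only Gramd1b lower. Psap and Ctsd, a lysosomal activator protein and protease, stood at 505 and 565 TPM and at 301 and 370 TPM. The other 12 genes of the list with enough counts were not called.

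Of 19 apolipoproteins, lipases and efflux genes, 12 had enough counts, 2 were called higher and 1 lower, beside 2.40% and 1.10% of all genes compared, and the median log2 ratio was 0.22. Lpl, the lipoprotein lipase and also an adipocyte marker here, stood at 28.0 and 233 TPM (8.33-fold, 7.99 to 8.69), and Pltp, the phospholipid transfer protein, at 9.35 and 21.3 TPM (2.11-fold, 1.88 to 2.36). Lipg, the endothelial lipase, was 3.31-fold lower (2.45 to 4.53), at 1.63 and 0.53 TPM. Abca1, which exports cholesterol to apolipoproteins, stood at 36.6 and 75.9 TPM, a fold of 1.90 (1.86 to 1.95) that missed the rule.

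**Figure D4:**
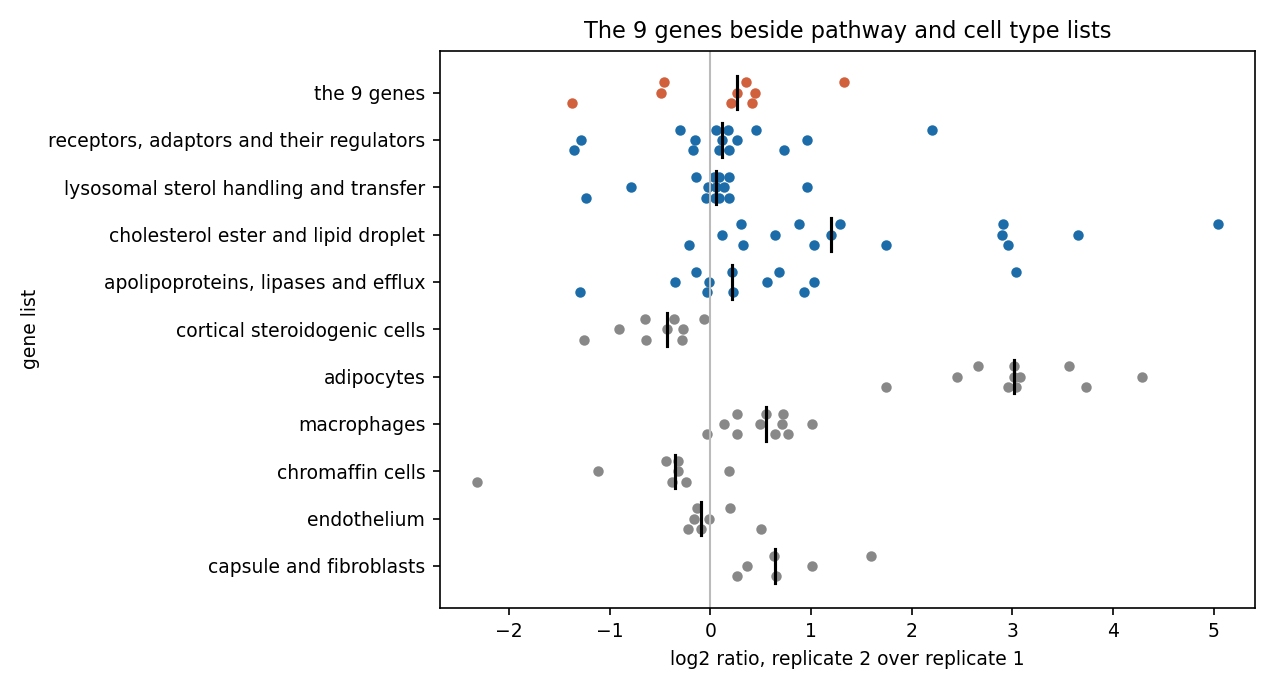
Log2 ratio of replicate 2 over replicate 1 for the 9 genes (orange), for 4 pathway lists (blue) and for marker lists of cell types (grey), each point 1 gene with a mean of at least 100 counts and each black bar a median. The 9 genes spread from -1.38 to 1.33 around a median of 0.26, the lipid droplet and adipocyte lists lie to the right, and steroid-producing cell markers lie to the left of 0.

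Transcript make-up was simple for some members and divided for others. The annotation holds 72 transcripts of the 9 genes, 36 of them not annotated as protein coding. For 8 of the 9 genes both quantifiers placed the same transcript first. Npc2-201 took 92.1 ± 1.68% of its gene, Apoe-209 89.2 ± 0.665%, Scarb1-201 85.6 ± 4.21% and Npc1-201 81.4 ± 0.721% by RSEM. The leading transcripts of Vldlr (Vldlr-207, 48.0% and 52.0% in replicates 1 and 2) and Soat1 (Soat1-201, 39.6 ± 2.84%) took smaller shares.

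The main coding transcripts of Vldlr differed by the 84-base exon. Another transcript, Vldlr-201, not annotated as protein coding, took a mean of 21.5% of the gene by RSEM and 27.4% by kallisto. Vldlr-207, with the exon, stood at 3.44 TPM in replicate 1 and 5.27 TPM in replicate 2, and Vldlr-208, without it, at 1.72 and 2.12 TPM. Within this pair the form without the exon took 33.3% and 28.7% by RSEM and 30.4% and 22.7% by kallisto. Only 181 and 240 counts lay on Vldlr-208, with a posterior SD of 47.7 and 48.6, so its change between the animals was within the uncertainty of the estimate.

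Both full-length Soat1 transcripts were lower in replicate 2, and they start in different places. Soat1-201, which begins inside the gene at base 156466804 of chromosome 1, stood at 257 and 176 TPM, and Soat1-207, which begins at base 156474331 and has the same coding length of 1620 bases in a message of 8371 bases, at 76.6 and 69.9 TPM. By counts Soat1-201 was 1.58-fold lower in replicate 2 and Soat1-207 1.19-fold lower. By kallisto the TPM ratios of replicate 2 over 1 were 0.702 for Soat1-201 and 0.906 for Soat1-207, against 0.684 and 0.913 by RSEM. The short intron-retaining Soat1-203 took 27.3 ± 3.09% by RSEM but 5.20% by kallisto, and Soat1-205 2.63 ± 0.750% and 20.9%, so the level of the whole gene rests in part on how short transcripts were assigned.

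Lipa and Scarb1 showed the widest gaps between quantifiers. Lipa-201 and Lipa-202 differ by 4 bases at the 5′ end of exon 2, directly before the start codon, and both have 1191 coding bases. RSEM gave Lipa-201 93.6% and 80.7% of the gene in replicates 1 and 2, and kallisto gave it 9.06% and 11.2% and Lipa-202 75.6% and 79.1%. Their sum differed less, at 31.9 and 40.1 TPM by RSEM and 27.0 and 34.6 TPM by kallisto. In Scarb1, transcripts not annotated as coding took 3.66% and 3.76% by RSEM but 46.9% and 46.3% by kallisto, mostly Scarb1-204 and Scarb1-206. The kallisto level of the gene was 1.39 and 1.41 times the RSEM level, at 2022 and 862 TPM, whereas the log2 ratio between the animals was -1.35 against -1.38. The cause of these gaps between quantifiers was not tested.

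**Figure D5:**
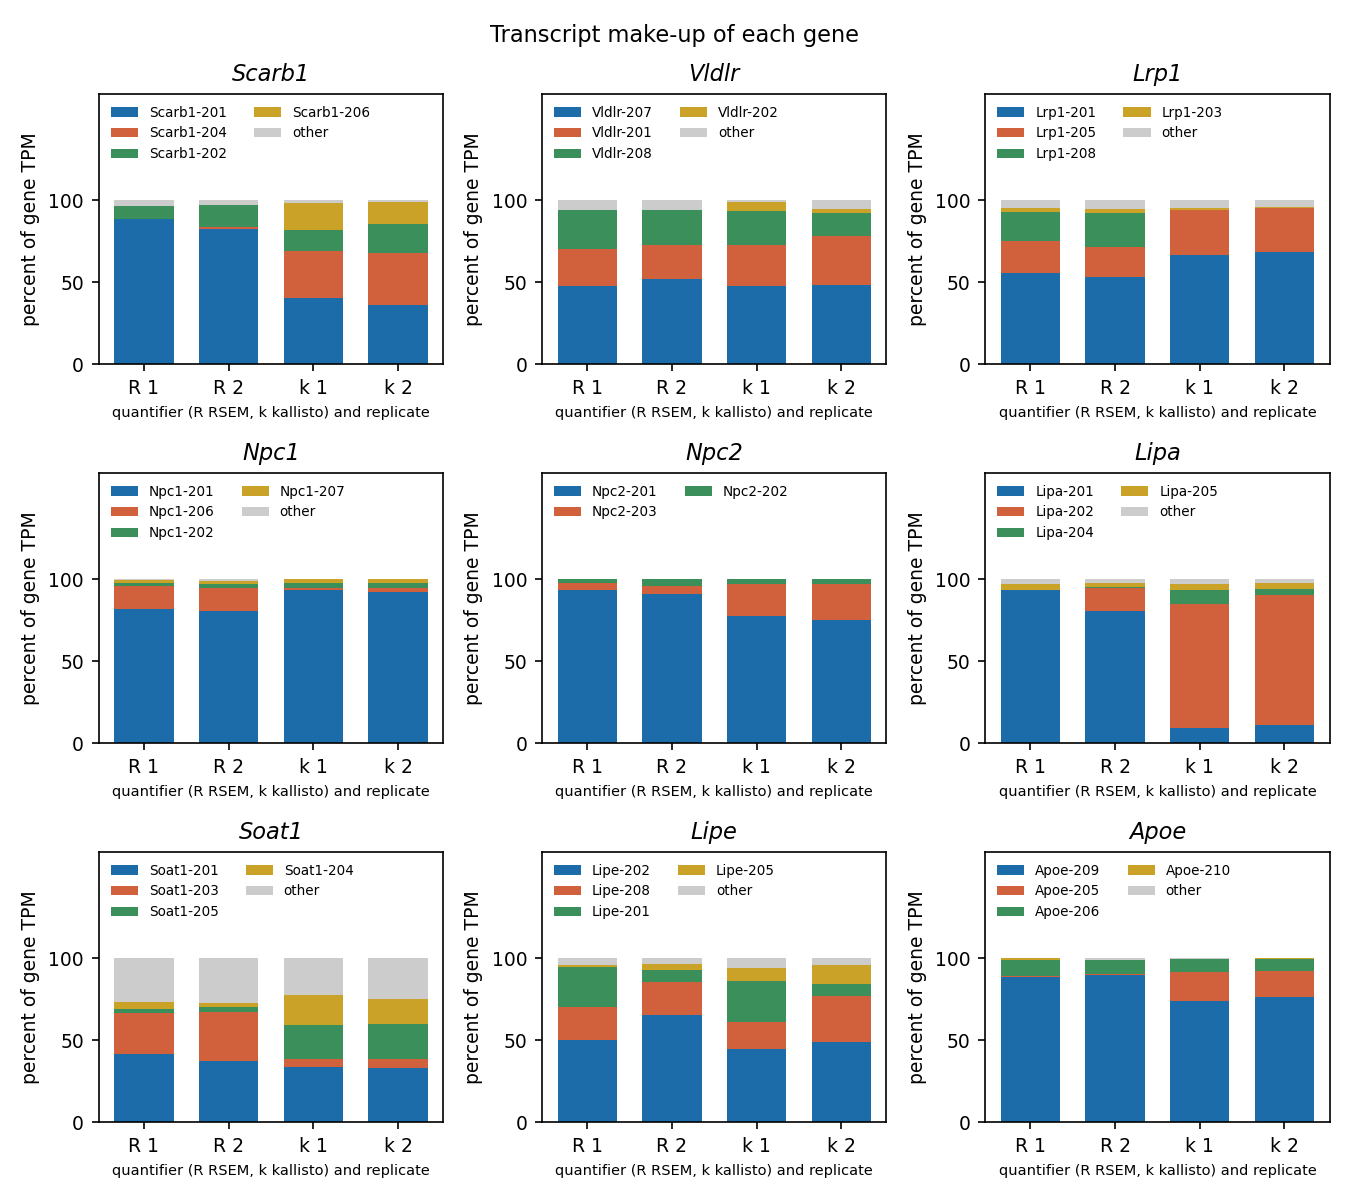
Percent of the gene's TPM taken by each transcript, for RSEM-format (R) and kallisto-format (k) tables in replicates 1 and 2, with the 4 leading transcripts coloured and the others in grey. Within a quantifier the replicates are alike for most genes; Lipe changes between replicates, and Lipa and Scarb1 change between quantifiers.

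RefSeq promoter windows (GRCm38.p6, 300 bases, 250 before to 50 after a start) were found for 7 of the 9 genes, as 11 windows; Scarb1 and Npc1 were not matched. They were searched on both strands for CACGTG (an E-box), AGGTCA (part of a nuclear receptor element) and CACCCCA (part of a sterol regulatory element); these letters do not contain one another. CACCCCA stood in 2 of 11 windows, against 7.6% of all 32851 windows, once each in Soat1 and Apoe. CACGTG stood in 1, the upstream window of Lipe, against 7.2% of all windows, and AGGTCA in 0 against 16.3%. A match is a description of letters. The 250 bases before the start of Soat1 (chr1:156474329-156474578, minus strand) and the most upstream start of Apoe (chr7:19699189-19699438, minus strand) are shown because they hold the match, which is in capitals and lies on the reverse strand in Soat1. Neither lies directly before the leading transcript. The Soat1 window is near the start of Soat1-207, and Soat1-201 begins downstream at base 156466804. The Apoe window is at the start of Apoe-206, and Apoe-209 begins downstream at base 19699008.
Soat1 promoter: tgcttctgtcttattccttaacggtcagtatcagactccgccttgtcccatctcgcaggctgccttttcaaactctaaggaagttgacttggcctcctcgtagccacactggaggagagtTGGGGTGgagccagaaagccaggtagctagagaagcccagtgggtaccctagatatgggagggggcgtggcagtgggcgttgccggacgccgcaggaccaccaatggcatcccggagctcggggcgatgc
Apoe promoter: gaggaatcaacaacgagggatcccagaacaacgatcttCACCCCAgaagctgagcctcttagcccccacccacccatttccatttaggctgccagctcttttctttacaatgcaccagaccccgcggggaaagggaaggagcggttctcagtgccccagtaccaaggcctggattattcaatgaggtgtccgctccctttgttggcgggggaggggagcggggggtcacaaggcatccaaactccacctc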

How the data were processed

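Total RNA of 2 adrenal glands was sequenced from 300 ng each, with a directional kit and ERCC spike-ins (synthetic RNAs), per the labels. The authors deposited expected counts per gene and transcript (estimated, not normalized), TPM, and for each transcript its percent share of the gene, under the column names of RSEM, per the file headers. They also deposited estimated counts and TPM per transcript under those of kallisto. The assembly is mm10 with GENCODE M21, per the text deposited with the files; no tool version is stated there. The assembly is that of C57BL/6J, and how reads of the CAST/EiJ allele were counted was not tested.

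Levels are deposited TPM. For replicate 2 over replicate 1, expected counts on the 55536 annotated genes were rounded and scaled with TMM factors (edgeR 4.0.16, R 4.3.3); folds are ratios of scaled counts with exact conditional binomial 95% intervals (scipy 1.17.1). The files carry no molecular identifiers, so reads may be copies of 1 molecule and the intervals cover counting error only. DESeq2 1.42.0 size factors, total counts, ERCC counts, kallisto-format counts and TPM ratios served as alternatives. A gene was called at 2-fold with the interval clear of equality and a mean of at least 100 counts, a rule tested on simulated counts with sampling noise alone. The libraries differed by more than sampling noise (chi-square per degree of freedom 72.9), and the labels give separate animals. The members and lists were chosen with earlier results of these data known. All 9 members were named. From each pathway list the text names the 2 genes with the highest mean TPM and those called; Apoc4, Apoc1, Apoa1, Nceh1, Soat2, Abca1 and the other marker genes given with values were chosen after their values were seen. Liver, endothelium, brown adipocyte and glial marker lists were also computed, with median log2 ratios of 0.07, -0.09, 2.57 and 0.25. One gene of the receptor list is not reported here.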

Additional observations from a re-analysis of the deposited data

How the results depend on the processing

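Lipe was the 1 gene called higher and Scarb1 the 1 called lower under DESeq2 size factors, total counts, ERCC counts, kallisto-format counts, TPM ratios and a 1.5-fold threshold (1.5-fold background 6.39% higher and 3.72% lower). All 9 log2 ratios kept their sign under the 8 alternatives tried for them. That of Scarb1 ranged from -1.39 to -1.25 and that of Lipe from 1.32 to 1.57. The members' median log2 ratio of 0.26 was 0.30 with total counts, 0.33 with ERCC counts and 0.44 with TPM ratios. The share of all genes at least 2-fold apart was 3.51% and became 8.60% with a mean of at least 10 counts, a filter that admits genes of few counts. The summed level of the 9 genes was 2223 TPM, from 1838 without replicate 1 to 2608 without replicate 2, and 5971 when TPM were rescaled to nuclear coding genes, a smaller denominator by construction. The median share of the leading transcript was 81.3% by RSEM (80.7% without replicate 1, 81.9% without replicate 2) and 48.4% by kallisto; the cause was not tested. By kallisto the levels of Lrp1 and Npc1 moved by more than the SD, to 56.8 and 40.4 TPM. The kallisto values of the Lipe starts and of the Scarb1 pair were added after the data were seen. No paired analysis was possible because there is only 1 group. With 1 animal a side, no difference between the animals has a replicate check.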
